A study of Mus musculus with 64 samples.

Results

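Oxidative phosphorylation is carried out by 5 protein complexes of the inner mitochondrial membrane, and the nuclear genes for their subunits were followed in sorted mouse retinal microglia after intravitreal adeno-associated virus serotype 2 (AAV2). Members were the rows of the batch-corrected count table whose gene symbol carries the subunit prefix of complex I (Nduf a, b, c, s or v), complex II (Sdh a to d), complex III (Uqcr), complex IV (Cox 4 to 8) or complex V (Atp5), with pseudogene rows marked -ps left out. The rule also takes in Ndufa11b and Ndufb4c, which the annotation lists as processed pseudogenes. This gave 86 of 25239 rows, with 39 in complex I, 4 in complex II, 8 in complex III, 18 in complex IV and 17 in complex V. Of these, 81 had enough counts to be tested, among 13584 genes tested in all.

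The mice were heterozygous Cx3cr1CreER:R26-tdTomato animals on a C57BL/6J background, in which topical tamoxifen switches on the red fluorescent protein tdTomato in Cx3cr1-expressing cells. That promoter is active in microglia and also in other mononuclear phagocytes, and a washout of some weeks after tamoxifen was used to favour the long-lived microglia among labelled cells. The AAV2 carried no transgene and was given at 1e10 genome copies per eye. By the paper's account its genome held an oligonucleotide sequence that inhibits TLR9, a sensor of viral DNA. Each library came from 600 live tdTomato-high cells of a single retina, taken from naive mice, or from mice at day 12 (D12) or day 28 (D28) after the injection. Males and females were 3, 9 or 18 months old, and the 18 groups of age, sex and state held 2 to 4 libraries each, with 19 naive, 22 D12 and 21 D28 libraries in all. The naive eyes were not injected, so the injection and the vector cannot be told apart in these libraries. The paper did examine PBS-injected eyes by imaging and flow cytometry. It reports no infiltrate there and no such shift of the microglial surface markers, but no PBS-injected eye is among the libraries.

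Mitochondria pass electrons from NADH through complex I, or from succinate through complex II, to ubiquinone, then through complex III and cytochrome c to complex IV, where oxygen is reduced. Complexes I, III and IV pump protons, and complex V, the ATP synthase, uses their return to make ATP. All complexes but II also contain subunits encoded in mitochondrial DNA, which are not among the rows analysed here. Microglia are known to shift between oxidative and glycolytic metabolism when activated, and the nuclear subunit genes are known targets of the transcription factors NRF1, GABP of the ETS family, and YY1.

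Each library held 1468478 to 9836173 counts (median 4188992), and levels are given in CPM, counts scaled to the size of the library, where 3 counts stood for 0.305 to 2.04 CPM according to depth. A library of 18-month-old males bears D28 in its title and D12 in its time-point label, and was used as D28. The sex-linked genes of 2 of 64 libraries went against their labels, and neither library was used: one 18-month-old female D28 library was left out, and one 9-month-old male D28 library has no column in the batch-corrected table. In the uncorrected table their members' mean log2 CPM was 6.87 and 6.47, beside 5.86 to 7.43 in the naive libraries. Each of the 8 microglia markers was detected in most libraries, and their summed level was 26232 to 45134 CPM in naive libraries, 10980 to 32096 CPM at D12 and 18489 to 40349 CPM at D28.

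Promoter sequence was read for the members, because these genes are textbook targets of a few factors and moved together here. RefSeq promoters on GRCm38.p6, from 250 bases before to 50 bases after the start, were matched for 68 of the 86 members and searched on both strands for 3 motifs, none of which contains another. The ETS motif CCGGAAG was in 17 of 68 (25%), beside 9.93% of 27025 genes. The longer NRF1 motif was in 17 of 68 (25%) and in 5.19% of all genes, and the YY1 motif AAGATGGCG in 7 of 68 (10.3%) and in 1.64% of all genes. Of the 49 matched members called at D12 in the tests described next, 16 held the ETS motif and 12 the NRF1 motif, beside 1 and 5 of the other 19, as a description with no test. One member of each complex is shown here by 120 bases before its RefSeq start, with the motif on either strand in capitals. CTTCCGG is CCGGAAG read on the other strand, and the capitals nearer the 5′ end of Sdhd are the NRF1 motif. The windows end at the start, except that of Atp5e. It is centred on a match that begins 102 bases before the start, and stops short of the start. Each was chosen as the called member of smallest p in its complex with a match of any of the 3 motifs before the start. That each was called and holds a motif follows from this choice. The windows, 5′ to 3′ on the strand of the gene, are Ndufs3 at chr2:90904722-90904841 (minus strand), Sdhd at chr9:50603850-50603969 (minus), Uqcrh at chr4:116075071-116075190 (minus), Cox6b1 at chr7:30626115-30626234 (minus) and Atp5e at chr2:174464141-174464260 (minus). RefSeq starts differ from those of the annotation used for gene positions, in which Ndufs3 reaches to 90904827, Cox6b1 to 30626151 and Uqcrh to 116075071, so that their windows overlap the annotated gene, while those of Sdhd and Atp5e lie before it.
Ndufs3: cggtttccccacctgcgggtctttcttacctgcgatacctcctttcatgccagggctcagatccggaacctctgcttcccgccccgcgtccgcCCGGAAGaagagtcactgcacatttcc
Sdhd: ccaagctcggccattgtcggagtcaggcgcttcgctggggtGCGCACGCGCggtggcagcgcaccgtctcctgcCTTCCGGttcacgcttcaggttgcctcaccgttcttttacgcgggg
Uqcrh: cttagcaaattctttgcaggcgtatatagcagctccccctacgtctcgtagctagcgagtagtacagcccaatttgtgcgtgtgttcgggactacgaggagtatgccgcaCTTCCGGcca
Cox6b1: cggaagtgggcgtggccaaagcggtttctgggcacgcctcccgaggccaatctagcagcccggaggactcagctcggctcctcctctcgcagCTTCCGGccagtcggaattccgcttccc
Atp5e: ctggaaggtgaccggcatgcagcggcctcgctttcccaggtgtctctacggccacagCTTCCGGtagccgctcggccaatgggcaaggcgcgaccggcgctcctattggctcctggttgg

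Whether microglia 12 days after AAV2 differ from naive microglia in these genes was asked first, over all ages and both sexes. The members were higher as a group at D12, by 0.54 at the median on the log2 scale (all genes tested 0.02). Of the 81 tested, 75 had a fold change above 0 and 58 passed the test (edgeR quasi-likelihood, Benjamini-Hochberg adjusted p under 0.05), all 58 higher and 0 lower. Among all genes tested, 20.1% were called higher. Tested against a log2 fold change of 1, 1 member passed. Cells were collected on 2 days, and 30 members passed among the libraries of the first day alone (median 0.52) and 58 among those of the second (0.74). On the counts without batch correction 33 passed with no term for the day, and 57 with the day as a covariate. The shares of all genes called in these runs are not given, so their counts cannot be set against a background. The members' share of all counts was 0.836 to 1.86% in naive libraries (median 1.55%), 1.22 to 2.86% at D12 (median 1.99%) and 1.05 to 2.16% at D28 (median 1.72%). In bulk samples a change in the mixture of cells and a change of RNA within a cell cannot be told apart.

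The members' mean log2 CPM per library was 5.68 to 7.06 in naive libraries (median 6.81), 6.27 to 7.90 at D12 (median 7.25) and 6.23 to 7.49 at D28 (median 7.02). Naive and D12 libraries overlapped, and the lowest values lay in a few libraries far below the others of their state. Within strata of age and sex, D12 lay above naive by 0.50 on average (0.35 to 0.75), and in 6 of 6 strata. D28 lay above naive by 0.35 (0.06 to 0.90), again in 6 of 6 strata. The SD within groups, pooled over the groups, was 0.37. By complex, the D12 difference was 0.42 for complex I, 0.42 for II, 0.43 for III, 0.63 for IV and 0.58 for V, and the D28 difference 0.30, 0.21, 0.27, 0.56 and 0.32.

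**Figure D1:**
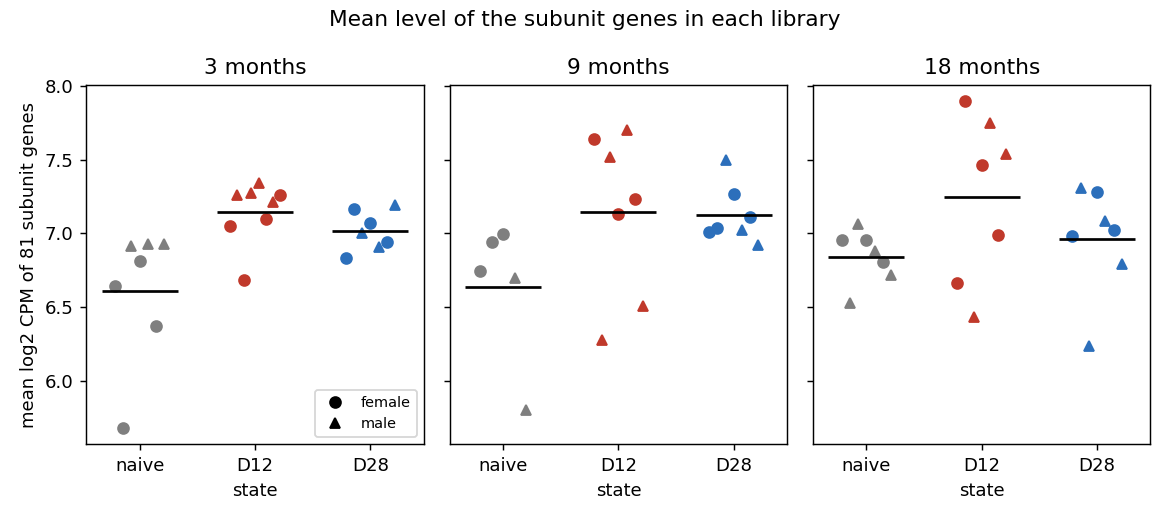
Mean log2 CPM over the 81 tested members in each library (circles female, triangles male), for naive, D12 and D28 at each age, with a line at the mean. At 3 months the naive libraries lie at 5.68 to 6.93 and the D12 libraries at 6.68 to 7.34, at 9 months the D12 libraries (6.27 to 7.70) overlap the naive ones (from 5.80), and at 18 months D12 libraries lie both above and below them.

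Complex I, the NADH dehydrogenase, had 24 of 36 tested members higher at D12 (median log2 fold change 0.46). The members that changed were for the most part accessory subunits, which surround the catalytic core. Of the 29 accessory subunits tested, 23 passed (median 0.52), against 1 of 7 core subunits. One of the accessory rows is the annotated pseudogene Ndufa11b. This division by role was made with the values known, and no test was run on it.

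The complex I member with the smallest p was Ndufa3, an accessory subunit (chr7:3617373-3620327, plus strand). Its level was 65.7 to 267 CPM in naive libraries (median 185), 139 to 487 CPM at D12 (median 337) and 91.6 to 351 CPM at D28 (median 232). At D12, 16 of 22 libraries lay above the highest naive library, and the log2 fold change was 0.91 (SE 0.15, adjusted p = 1.21e-06). Ndufa1, an X-linked accessory subunit (chrX:37187588-37191163, minus strand), was at 51.1 to 389 CPM in naive libraries (median 195), 115 to 542 CPM at D12 (median 373) and 102 to 502 CPM at D28 (median 351). Fewer of its D12 libraries, 9 of 22, lay above all naive ones, with a log2 fold change of 0.99 (SE 0.16, adjusted p = 1.78e-06). Ndufc1, also accessory, went from a naive median of 116 CPM (34.1 to 176) to 205 CPM at D12 (66.3 to 369) and 165 CPM at D28 (54.5 to 275). Its log2 fold change at D12 was 1.02 (SE 0.18, adjusted p = 5.51e-06), and 15 of 22 D12 libraries lay above every naive library.

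The core subunits of complex I carry the flavin and the iron-sulfur clusters. Ndufv1, which binds NADH, was at 34.1 to 70.5 CPM in naive libraries (median 49.0) and at 31.7 to 100 CPM at D12 (median 51.0), with a log2 fold change of -0.05 (adjusted p = 0.838). For Ndufs1, the large iron-sulfur subunit, it was -0.10 (adjusted p = 0.657). Ndufs3, the one core subunit that passed, was at 38.7 to 78.7 CPM in naive libraries (median 61.2) and 46.0 to 146 CPM at D12 (median 82.6), and 15 of 22 D12 libraries exceeded all naive ones. Its log2 fold change was 0.65 (SE 0.12, adjusted p = 1.34e-05). Ndufa4, counted under complex I by its symbol but known as a partner of complex IV, had a log2 fold change of 0.41 (SE 0.16, adjusted p = 0.0385). That call was lost in 10 of 62 omissions of a single library (adjusted p up to 0.125, without the male naive library 2 of 9 months). The other 9 were the female D12 libraries 2 and 4 of 3 months, the female naive library 2, the female D12 library 1 and the male D12 libraries 3 and 4 of 9 months, and the female D12 library 4 and the male D12 libraries 1 and 2 of 18 months. It was also lost on the first collection day alone (0.25, adjusted p = 0.527), on uncorrected counts with no term for the day (adjusted p = 0.292), with the short-transcript index described further on as a covariate (0.12, adjusted p = 0.309), and in 4 other alternatives.

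Complex II, succinate dehydrogenase, is encoded wholly in the nucleus, and 3 of its 4 subunits passed at D12, of which Sdhc was lost under several alternatives. Sdhb, the iron-sulfur subunit (chr4:140961203-140979193, plus strand), had the smallest p of all members. It was at 201 to 360 CPM in naive libraries (median 277), 277 to 813 CPM at D12 (median 497) and 330 to 559 CPM at D28 (median 416). Its naive range was narrow, and 17 of 22 D12 libraries lay above the whole of it. The log2 fold change was 0.93 (SE 0.12, adjusted p = 1.32e-09).

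The other subunits of complex II moved less than Sdhb. The membrane anchors Sdhd (log2 fold change 0.45, SE 0.12, adjusted p = 0.0012) and Sdhc (0.34, SE 0.13, adjusted p = 0.0333) passed. Sdhd was at 109 to 236 CPM in naive libraries (median 206) and 104 to 421 CPM at D12 (median 258), and 14 of 22 D12 libraries lay above all naive ones. Sdhc went from 33.9 to 121 CPM (median 61.9) to 45.2 to 132 CPM (median 78.6), with 4 D12 libraries above all naive ones. The call of Sdhc was lost in 8 of 62 omissions of a single library, with 0.25 (adjusted p = 0.112) without the female D12 library 1 of 9 months. The other 7 were the male naive library 2, the female D12 library 1 and the male D12 library 3 of 3 months, the male naive library 1 and the male D12 library 3 of 9 months, and the female naive library 1 and the female D12 library 3 of 18 months. It was also lost on the second collection day alone (0.12, adjusted p = 0.627), on uncorrected counts without (adjusted p = 0.135) and with a term for the day (adjusted p = 0.0871), and with a replicate block (adjusted p = 0.0538). Sdha, the flavoprotein that oxidises succinate and the partner of Sdhb in the catalytic head, did not pass (0.10, SE 0.12, adjusted p = 0.585). Its level was 81.1 to 228 CPM in naive libraries (median 89.8) and 69.4 to 222 CPM at D12 (median 97.9), so that the ranges nearly coincided.

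Complex III, the cytochrome bc1 complex, had 5 of 8 members higher at D12 (median 0.52). These were the 5 small subunits Uqcrh, Uqcr10, Uqcrq, Uqcr11 and Uqcrb, which rose by 0.47 to 0.88. The core proteins Uqcrc1 (-0.05, adjusted p = 0.808) and Uqcrc2 (0.09) and the Rieske iron-sulfur protein Uqcrfs1 (0.10) did not pass. Uqcrh, the hinge protein at the cytochrome c1 contact (chr4:116066965-116075071, minus strand), was at 52.6 to 267 CPM in naive libraries (median 152), 85.5 to 368 CPM at D12 (median 278) and 83.4 to 344 CPM at D28 (median 222). At D12, 14 of 22 libraries exceeded every naive library, with a log2 fold change of 0.86 (SE 0.15, adjusted p = 4.03e-06). Uqcr10 had naive levels of 65.2 to 380 CPM (median 223) and D12 levels of 134 to 664 CPM (median 391), with a log2 fold change of 0.88 (SE 0.18, adjusted p = 5.27e-05). Uqcrq, which contacts the ubiquinone-binding region, was at 87.4 to 438 CPM (median 278) and then at 161 to 942 CPM (median 429), with 0.72 (SE 0.17, adjusted p = 0.000643). In both, the groups overlapped, with 12 and 11 of 22 D12 libraries above all naive ones.

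Complex IV, cytochrome c oxidase, showed the highest median of the 5 complexes at D12 (0.75), with 11 of 16 tested members higher. Among the widely expressed subunits 10 of 11 rose, and the exception, Cox7c, had a log2 fold change of 0.30 (adjusted p = 0.106). Cox4i1, the largest nuclear subunit (chr8:120668222-120674207, plus strand), was at 268 to 1022 CPM in naive libraries (median 697), 578 to 1699 CPM at D12 (median 1301) and 492 to 1247 CPM at D28 (median 1035). At D12, 16 of 22 libraries lay above all naive ones, and the log2 fold change was 0.94 (SE 0.13, adjusted p = 2.5e-08). Cox5a, a matrix-side subunit (chr9:57521274-57532426, plus strand), was at 71.4 to 309 CPM in naive libraries (median 223), 189 to 763 CPM at D12 (median 394) and 109 to 330 CPM at D28 (median 260). Its D28 libraries returned to the naive range for the most part, while 15 of 22 D12 libraries lay above it. The D12 log2 fold change was 1.11 (SE 0.16, adjusted p = 7.89e-08). Cox7b, a small membrane subunit, went from a naive median of 131 CPM (45.6 to 197) to 255 CPM at D12 (101 to 429), with 15 of 22 libraries above all naive ones and a log2 fold change of 1.03 (SE 0.16, adjusted p = 8.22e-07).

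Several subunits of complex IV have isoforms known from heart, muscle, testis or lung, and these were low in microglia next to their widespread counterparts. Per kilobase of exon, the naive median was 911 CPM for Cox4i1 against 2.21 CPM for the lung isoform Cox4i2. It was 830 for Cox6a1 against 43.9 for Cox6a2 (heart and muscle), 571 for Cox6b1 against 8.24 for Cox6b2 (testis), and 411 for Cox7a2 against 4.78 for Cox7a1 (heart and muscle), in the same unit. Cox8a stood at 638, and the muscle isoform Cox8b at 0. The related gene Cox7a2l stood at 63.0.

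Cox6a2 (chr7:128205435-128206387, minus strand) was the one isoform of this kind that rose, and the member that passed the test against a log2 fold change of 1. It was at 0 to 227 CPM in naive libraries (median 29.8), 28.3 to 399 CPM at D12 (median 92.1) and 20.2 to 269 CPM at D28 (median 72.1). A 9-month-old female naive library had 0 counts, an 18-month-old female naive library had the highest naive level, and 2 of 22 D12 libraries lay above it, whereas 21 of 22 lay above the naive median. The log2 fold change was 1.70 at D12 (SE 0.32, adjusted p = 2.77e-05), beside 0.53 for Cox6a1 (SE 0.15, adjusted p = 0.00405). The difference between the isoforms was not tested. Cox6b2 had 0 to 16.1 CPM in naive libraries (median 6.11) and 0 to 8.95 CPM at D12 (median 2.50), with a log2 fold change of -0.87 (SE 0.39, adjusted p = 0.0712), while Cox6b1 had 0.90 (SE 0.15, adjusted p = 1.09e-06). Cox6b2 was called lower without the female D12 library 4 of 3 months (-1.01, adjusted p = 0.0354), the female naive library 1 of 9 months (-0.95, adjusted p = 0.0316) or the male D12 library 4 of 9 months (-0.97, adjusted p = 0.0474), with no filter on low counts (adjusted p = 0.0412) and with the short-transcript index as a covariate (-1.23, adjusted p = 0.00862), and was at 0.27 on the first collection day alone. Neither Cox4i2 (0.17, adjusted p = 0.817) nor Cox7a1 (0.47, adjusted p = 0.304) passed. Cox4i2 was at 1.21 and passed (adjusted p = 0.0369) without the female naive library 2 of 18 months, and Cox7a1 was at 0.73 without the male naive library 1 of 9 months (adjusted p = 0.131). Cox8b, at 0 in the median library of each state, is given no fold.

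Complex V, the ATP synthase, had 15 of 17 members higher at D12 (median 0.65). The 9 stalk and membrane subunits passed without exception (median 0.70), as did 4 of 5 subunits of the F1 head. Atp5e, the small epsilon subunit (chr2:174461072-174464105, minus strand), was at 57.2 to 269 CPM in naive libraries (median 192), 124 to 638 CPM at D12 (median 379) and 84.9 to 421 CPM at D28 (median 276). At D12, 17 of 22 libraries exceeded every naive library, with a log2 fold change of 1.06 (SE 0.15, adjusted p = 8.06e-08). Atp5mpl, a small membrane subunit, went from a naive median of 144 CPM (45.2 to 255) to 255 CPM (80.4 to 474), by 1.01 (SE 0.17, adjusted p = 2.58e-06). Atp5j, coupling factor 6 of the stalk, went from 349 CPM (104 to 487) to 577 CPM (230 to 1009), by 0.94 (SE 0.17, adjusted p = 5.04e-06). The 2 large subunits of the head differed: Atp5b, the catalytic beta chain, rose by 0.41 (SE 0.11, adjusted p = 0.00258) from 303 to 690 CPM (median 391) to 309 to 818 CPM (median 532), and Atp5a1, the alpha chain, had 0.11 (SE 0.11, adjusted p = 0.522). No test of that difference was run.

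The rotating c-ring is built from 1 protein encoded by 3 genes. Per kilobase of exon, Atp5g3 had a naive median of 363 CPM, Atp5g1 7.01 CPM and Atp5g2 1.02 CPM, where the exon length taken for Atp5g1 (4912 bases) spans all its annotated transcripts. Atp5g3 rose by 0.63 (SE 0.14, adjusted p = 0.000146) and Atp5g1 by 0.64 (SE 0.17, adjusted p = 0.00152). Atp5g2, at 0 to 2.33 CPM in naive and 0 to 1.96 CPM in D12 libraries, was at the limit that 3 counts allow.

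**Figure D2:**
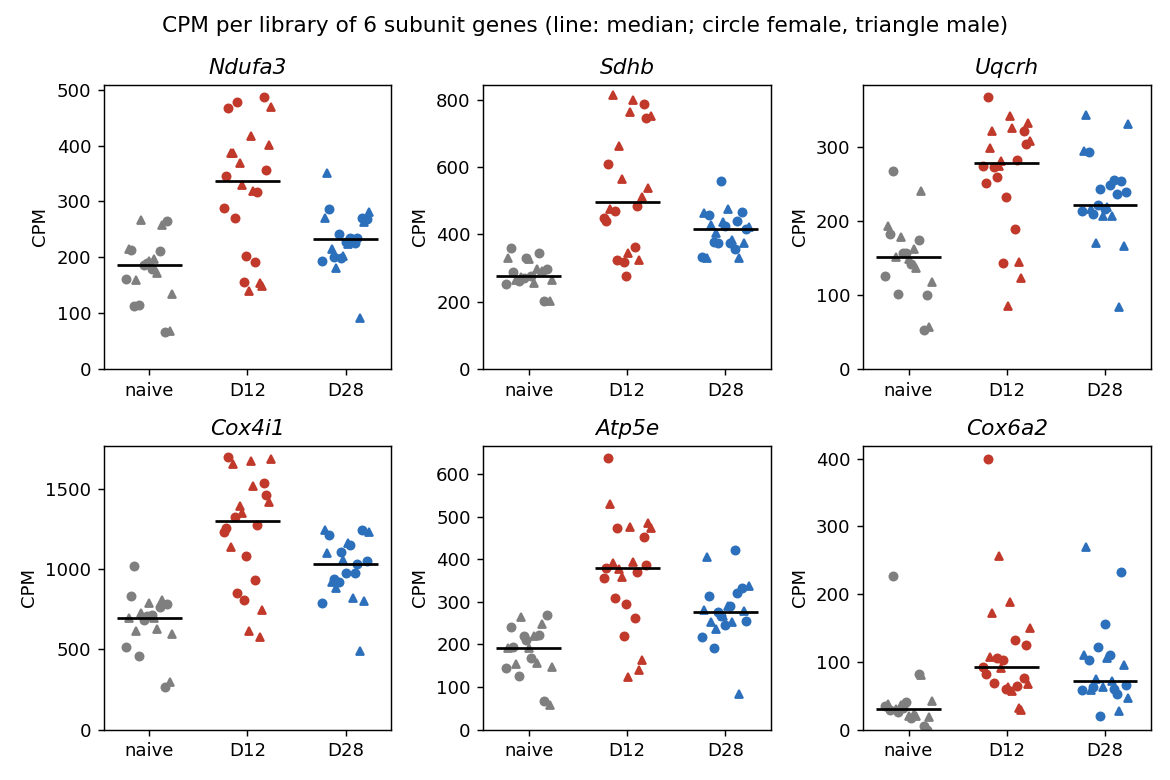
CPM of 6 members in each library (circles female, triangles male), for naive, D12 and D28, with a line at the median. Sdhb lies at 201 to 360 CPM in naive and 277 to 813 CPM in D12 libraries, and Cox6a2 has 1 naive library at 227 CPM, above 20 of the 22 D12 libraries.

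At D28 the members were still above naive levels, by 0.36 at the median (all genes 0.02), with 71 of 81 fold changes above 0. Of these 27 passed, all 27 higher, where 8.9% of all genes tested were called higher. By complex, 9 of 36 passed in complex I (median 0.34), 1 of 4 in complex II (0.17), 3 of 8 in complex III (0.30), 9 of 16 in complex IV (0.50) and 5 of 17 in complex V (0.37). The count rested on a few naive libraries: it was 15 without the second male naive library of 9 months and 44 without the first one. Within the first and second collection day, 7 (6 higher, median 0.29) and 26 (median 0.46) passed, and without batch correction 6 with no term for the day and 28 with one. For these runs too, no share of all genes called is given.

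Ndufa1 had the smallest p at D28, with a log2 fold change of 0.85 (SE 0.17, adjusted p = 0.000104), and 20 of 21 D28 libraries lay above its naive median. Cox7a2l was at 35.1 to 88.2 CPM in naive libraries (median 72.1) and 59.8 to 115 CPM at D28 (median 95.4), by 0.50 (SE 0.10, adjusted p = 0.00019), and its log2 fold change at D12 was 0.63. The log2 fold changes of Cox4i1 (0.64, SE 0.13, adjusted p = 0.000195), Sdhb (0.53, SE 0.12, adjusted p = 0.00043) and Uqcrh (0.70, SE 0.15, adjusted p = 0.000431) also passed. For Sdhb 21 of 21 D28 libraries lay above the naive median. Cox6a2 had 1.43 at D28 (SE 0.32, adjusted p = 0.000867), with 19 of 21 libraries above its naive median.

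**Figure D3:**
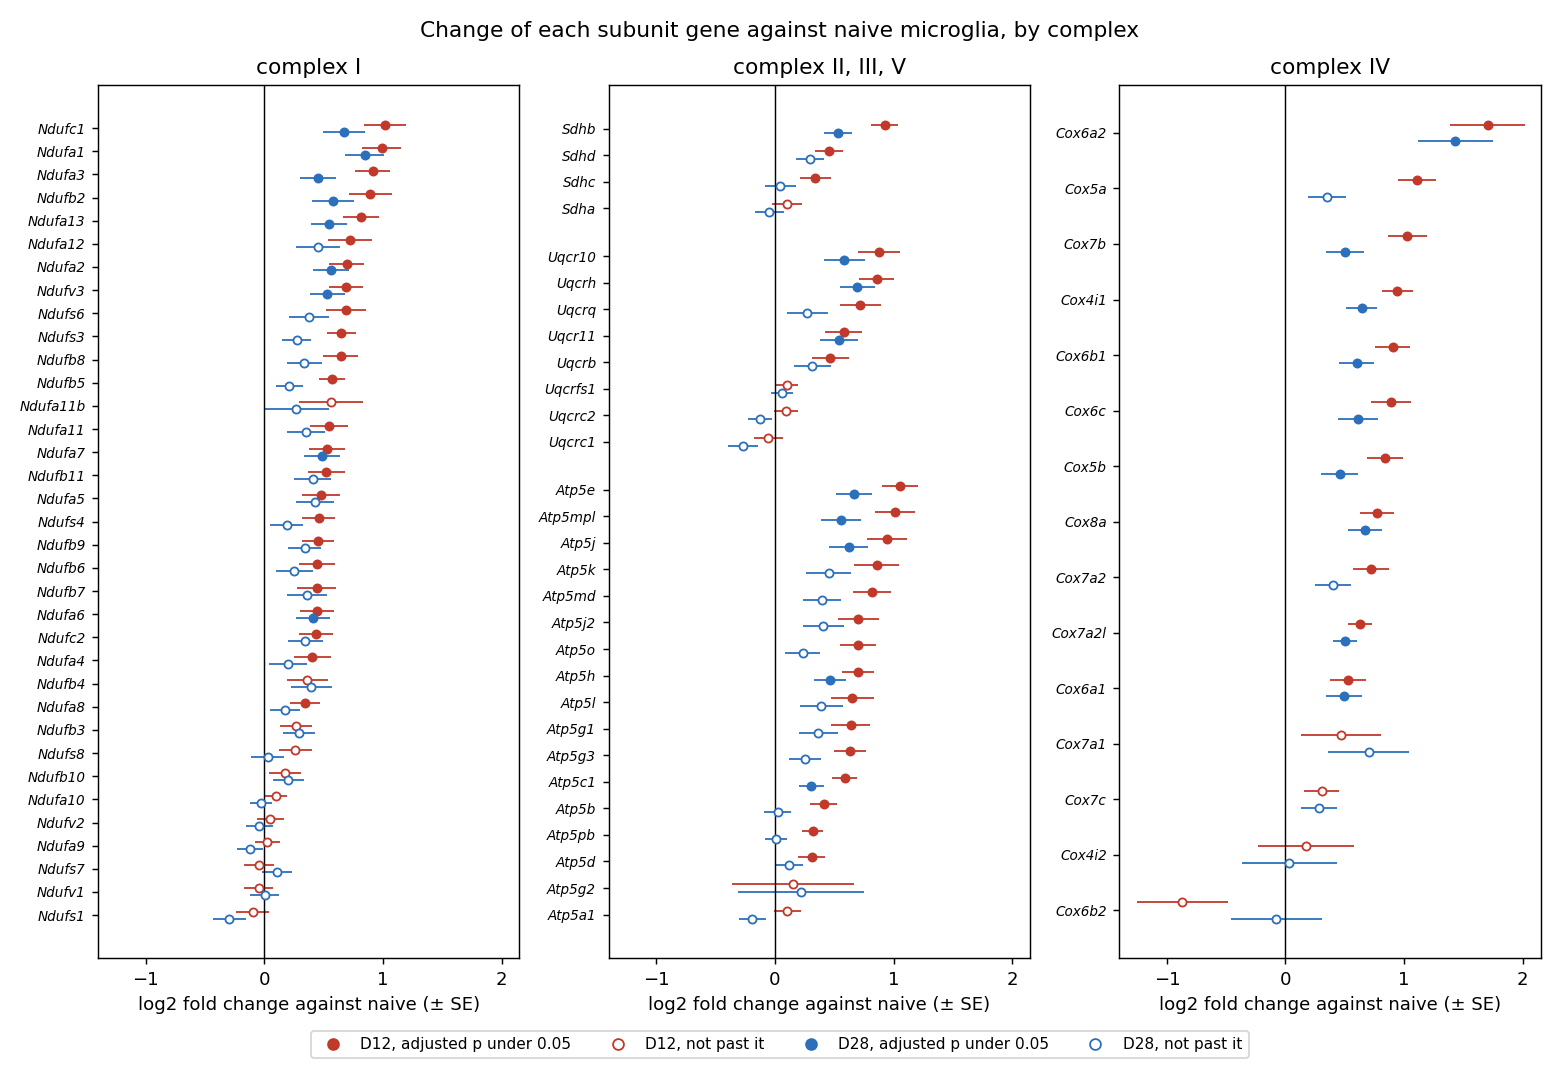
Log2 fold change with its SE for the tested members against naive microglia at D12 and at D28, by complex; filled points passed the test, both comparisons share the naive libraries, and 79 of the 81 are drawn. The medians over the members are 0.54 at D12 and 0.36 at D28, and complex IV has the highest median of the complexes on both days (0.75 and 0.50).

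D28 was also compared with D12 directly. The members were lower at D28 by 0.22 at the median (log2 fold change -0.22, all genes -0.02), and 14 of 81 passed, all 14 lower, where 10.2% of all genes tested were called lower. Complex V gave 8 of these, complex I 3, complex IV 2, complex II 1 and complex III 0. Cox5a had the largest change (-0.76, SE 0.15, adjusted p = 0.000168), followed by Cox7b (-0.52, SE 0.16, adjusted p = 0.012), Sdhb (-0.39, SE 0.11, adjusted p = 0.00661), Atp5b (-0.39, SE 0.11, adjusted p = 0.00729) and Atp5pb, the peripheral stalk subunit b (-0.31, SE 0.09, adjusted p = 0.00833), among the 5 with the smallest p. Atp5b and Atp5pb, with log2 fold changes of 0.02 and 0.0070 at D28 against naive, were at D28 levels of 278 to 854 CPM (median 408) and 165 to 247 CPM (median 203). The count was 9 without any one of the male D12 library 4 of 9 months, the female D12 libraries 3 and 4 of 18 months, the male D12 library 2 of 18 months, or the female D28 library 2 of 18 months. It was 8 with the library of both day labels placed at D12, 2 and 13 within the first and second collection day, and 3 on uncorrected counts with no term for the day. Here as well, the shares of all genes called are not given.

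By age, the members were higher at D12 at 3 months (median 0.52), 9 months (0.67) and 18 months (0.47). At 3 months 29 of 81 passed (9.35% of all genes tested were called higher), at 9 months 31 (10.4%) and at 18 months 19 (9.51%), with 0 lower at each age. Sdhb passed at each age, with log2 fold changes of 0.90 (SE 0.19), 0.95 (SE 0.22) and 0.92 (SE 0.19). Its naive levels were 202 to 331 CPM at 3 months (median 260), 201 to 360 CPM at 9 months (median 297) and 263 to 346 CPM at 18 months (median 290). Its D12 levels were 277 to 799 CPM (median 479), 323 to 813 CPM (median 439) and 317 to 763 CPM (median 608) at the same ages. The naive ranges of Sdhb were alike across ages, and some D12 libraries overlapped them at each age.

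These counts depended on single libraries. The median at 9 months was 0.47 without the male naive library 2 and 1.07 without the male naive library 1. At 3 months the count was 17 without the female naive library 4, 18 without the male naive library 1 and 19 without the male naive library 2. At 9 months it was 2 without the male naive library 2, 47 without the male naive library 1 and 17 without the male D12 library 3. For the 18-month-old mice it was 35 without the male D12 library 3. It was 8 without the male D12 library 2 or the female D12 library 4, 10 without the male D12 library 1, 11 and 12 without the male naive libraries 1 and 2, and 12 without the female D12 library 3.

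The median change from naive was smaller at D28 than at D12 at each age, and that difference was not tested by age. At 3 months 2 members passed, Ndufa1 (0.99, SE 0.27) and Cox4i1 (0.77, SE 0.22), where 1.94% of all genes were called higher. At 9 months 5 passed, Uqcrh, Ndufa1, Cox6a2, Cox8a and Atp5e (2.46% of all genes), and at 18 months 0 passed (3.04% of all genes), with 3 at an unadjusted p under 0.05 by edgeR and 1 called by DESeq2. The medians were 0.34, 0.55 and 0.17. The median at 9 months was 0.31 without the male naive library 2 and 0.98 without the male naive library 1, and that at 18 months 0.06 without the male D28 library 1 and 0.27 without the male D28 library 4. The count at 9 months was 0 without the male naive library 2 or the male D28 library 4, 2 without the female naive library 1 or the female D28 library 3, 3 without the female naive library 3 or the female D28 library 1, and 22 without the male naive library 1. At 3 months it was 0 without any one of the female naive libraries 2 and 4, the male naive libraries 1 and 3, the female D28 libraries 3 and 4 or the male D28 library 1. It was 1 without the male naive library 2, the female D28 library 2 or the male D28 library 3, and 4 without the male D12 library 1 of 9 months. At 18 months it was 1 without the female naive library 3, the male D28 library 4 or the male D12 library 1 of 9 months.

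No difference among ages was found in naive microglia. Of the 81 members 0 passed by edgeR, with 2 at an unadjusted p under 0.05, where 0.147% of all genes passed in either direction, and DESeq2 called 0. The smallest adjusted p was 0.278, and the median difference from 3 months was -0.04 at 9 months and 0.17 at 18 months. The D12 change differed among ages in 0 members by edgeR (0.0294% of all genes), 0 of them at an unadjusted p under 0.05, and the D28 change in 0 members (0% of all genes), again 0 unadjusted, with 0 called by DESeq2 in both tests. Likewise, the difference between males and females passed in 0 members at D12 (0% of all genes, 0 unadjusted) and in 0 at D28 (0% of all genes, 2 unadjusted), where DESeq2 also called 0. With 2 to 4 libraries in each group, these tests do not show that the ages or sexes were alike.

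Members of this group have short transcripts, and the level of short relative to long transcripts varied between libraries. Their exon length had a median of 945.5 bases (360 to 4912, 80 members), beside 3300 for all genes tested. A short-transcript index was computed for each library from genes outside all lists, as the level of 203 genes with under 1000 exon bases relative to 876 genes with over 5000, all with a mean log2 CPM over 5. Over the 62 libraries the members' mean followed this index (Pearson r = 0.87, Spearman rho = 0.82), and more closely once group means were removed (0.91 and 0.94). Both measures come from the same library and depth. Averaged over strata of age and sex, the index lay above naive by 0.22 at D12 (-0.14 to 0.59) and by 0.20 at D28 (-0.16 to 0.67). It was above naive in 5 of 6 strata on each day. The rise was largest in 3-month-old females (0.42 and 0.58) and 9-month-old males (0.59 and 0.67). The lowest index values were in the female naive library 4 of 3 months (-1.24) and the male naive library 2 of 9 months (-1.04). Next came the male D12 library 3 of 18 months (-0.77).

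**Figure D4:**
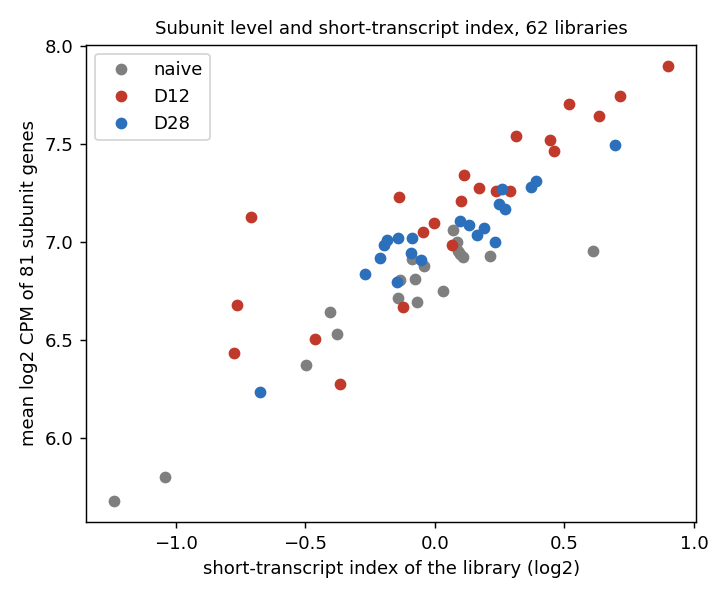
Members' mean log2 CPM (vertical axis) against the short-transcript index in log2 units (horizontal axis) in 62 libraries, coloured by state. Most points rise together (r = 0.87), and the 3 lowest index values are -1.24, -1.04 and -0.77.

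Genes outside the list were grouped by length in the same way, at a mean log2 CPM over 5, while members were kept at any level. At up to 750 bases the median log2 fold change was 0.63 for 29 members and 0.47 for 88 other genes, and over 750 and up to 1000 bases it was 0.48 and 0.24. Over 1000 and up to 1500 bases it was 0.65 for 17 members and 0.06 for 510 other genes, and over that and up to 2500 bases 0.21 for 14 members and -0.04 for 933 others. The members thus lay above other genes of their length in each of these bins, least among the shortest. At D28 the same medians were 0.45 and 0.37 up to 750 bases, 0.37 and 0.17 in the next bin, and 0.41 and 0.08 in the bin up to 1500 bases. In the bin up to 2500 bases the 14 members were near 0 at D28 (0.0045), beside -0.05 for other genes. Over 2500 and up to 5000 bases, 7 members had 0.34 at D12 and 0.04 at D28, beside -0.01 and -0.05 for others. The roles differ in length too: the median was 1623 bases for complex I core and 868 for its accessory subunits.

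With the index as a covariate, 52 members passed at D12, 50 higher and 2 lower, with a median of 0.35. At D28, 23 passed (median 0.17), and 25 passed in D28 against D12, of which 24 were lower. Without the 3 libraries of lowest index, the counts were 56 at D12 (median 0.50), 15 at D28 (median 0.26) and 24 in D28 against D12. Both settings were chosen after the data had been seen. The shares of all genes called under them are not given, so these counts cannot be set against a background. What sets the index was not tested.

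**Figure D5:**
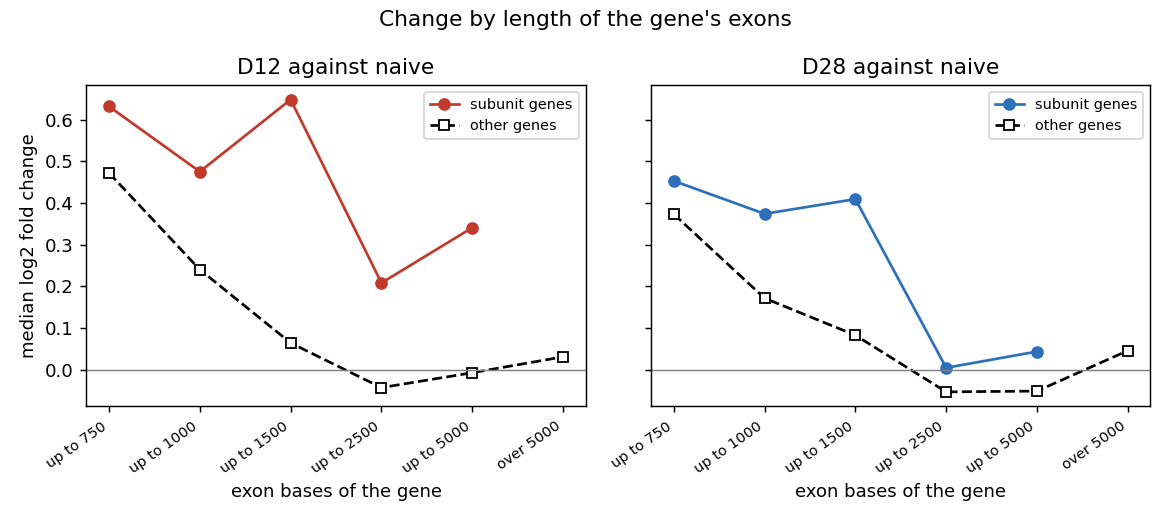
Median log2 fold change of members (filled) and of other genes (open) by exon length in bases, each bin starting where the one before ends, at D12 and at D28. Members lie above other genes in each bin they occupy, with 0.63 against 0.47 in the shortest bin and 0.65 against 0.06 in the bin up to 1500 bases at D12.

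Other mitochondrial genes were followed in lists drawn up from general knowledge, beside 20.1% called higher and 15.8% called lower among all genes tested at D12. Of 46 assembly factors tested 6 were higher and 5 lower (median 0.0040), with Coa5, a complex IV assembly factor, at 1.54 and Sdhaf1, which serves Sdhb, at -0.75. For the tricarboxylic acid cycle 4 of 19 were higher and 2 lower (median -0.0087). Idh2, the mitochondrial NADP-dependent isocitrate dehydrogenase, fell by 1.65 and Idh3g by 0.35. Regulators of mitochondrial biogenesis gave 1 higher and 3 lower of 17 (median -0.21): Ppargc1b, a coactivator, rose by 0.76, and Gabpb1, a subunit of GABP, was at -0.62, the polymerase subunit Polg2 at -0.73 and Tfam, which packages mitochondrial DNA, at -0.30. Among 78 mitochondrial ribosomal proteins 16 were higher and 6 lower (median 0.12), with Mrpl54 at 0.95. The import machinery had 7 higher and 1 lower of 19 (median 0.14), with the small subunits Tomm7 at 0.80 and Tomm6 at 0.65. Of 6 electron carriers and subunits outside the symbol rule, 1 was higher, Atpif1, the inhibitor of the ATP synthase, at 0.55, whereas cytochrome c (Cycs) had 0.18 (adjusted p = 0.55). The uncoupling and antioxidant genes had 3 higher of 7 (median 0.71), namely Sod2 at 1.42, Prdx5 at 1.39 and Ucp2 at 0.71.

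At D28, 8.9% of all genes tested were called higher and 6.49% lower. In the same lists the calls were 4 higher of 46 assembly factors, 1 lower of 19 tricarboxylic acid cycle genes, 1 lower of 17 biogenesis regulators, 2 higher and 1 lower of 78 mitochondrial ribosomal proteins, 3 higher of 19 import genes, 0 of 6 carriers and 3 higher of 7 uncoupling and antioxidant genes. The lists differ in transcript length from the subunits, and no test compared them.

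Markers of other cells changed between the states along with the members. At D12, 7 of 8 microglia markers were lower and 1 higher, while 6 of 6 T cell markers tested, 3 of 4 monocyte markers and 5 of 5 markers of dividing cells were higher, and 9 of 10 rod photoreceptor markers were lower. The summed T cell markers were at 0 to 132 CPM in naive libraries (median 1.28), 1.57 to 329 CPM at D12 (median 108) and 11.9 to 165 CPM at D28 (median 60.8). For monocytes the sums were 0.235 to 142 CPM (median 12.1), 4.76 to 1101 CPM (median 64.8) and 0.197 to 58.1 CPM (median 8.07), and for dividing cells 4.6 to 101 CPM (median 28.8), 8.36 to 751 CPM (median 147) and 4.06 to 142 CPM (median 17.7). Border macrophage markers were lower in 3 of 4 (0 to 277 CPM in naive, 0 to 25.8 CPM at D12). Of 5 Mueller glia markers 2 were higher and 2 lower (median sums 327, 426 and 400 CPM in naive, D12 and D28 libraries), of 4 retinal pigment epithelium markers 1 higher and 1 lower (30.1, 19.9 and 30.5 CPM), and of 3 B cell markers tested 0 higher and 1 lower (84.8, 48.0 and 54.3 CPM). Over the 62 libraries with group means removed, the correlation with the members' mean was -0.36 for microglia, 0.15 for T cell, 0.35 for monocyte and 0.37 for dividing cell markers. Their part in the members' change was not tested.

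The 5 members without a test had few or no counts. Cox8c was at 0 counts in every library, Cox7b2 reached 2 counts, Ndufa4l2 reached 3, and Ndufb4c reached 16 counts with a median of 1. Ndufs5, a complex I subunit, had 1 count in 1 library, while the row Ndufs5-ps, which bears the name of its pseudogene, held 68 to 1012 counts (median 277). For Ndufs5 and its copy, and likewise for Cox7c and Cox7c-ps1, Ndufb4 and Ndufb4c, and Ndufa11 and Ndufa11b, reads may be split between near-identical rows, so that their levels are uncertain.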

How the data were processed

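The authors amplified polyadenylated RNA of sorted cells (SMART-Seq v4, Nextera XT), aligned reads to mm10 with STAR 2.7.8a and counted them per gene with featureCounts. The submitters' processing notes also name bcl2fastq 2.20 and R 4.2.2. The deposited values are whole read counts per gene, in a table without batch correction (64 libraries) and in one that the authors corrected for 2 collection days with ComBat_seq, which was used here with 62 libraries. The correction changes counts, so both tables were tried.

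Members and lists were chosen with earlier results of these data known. Counts were scaled by TMM and filtered by filterByExpr, and 1 mean for each of 18 groups was fitted over all libraries by edgeR 4.0.16 quasi-likelihood in R 4.3.3. Contrasts averaged age and sex strata, and p-values were adjusted by Benjamini-Hochberg over 13584 genes at 0.05. Each library is 1 retina and the labels name no animal, so p-values measure the spread between these libraries. The paper reports that the contralateral eyes went to flow cytometry or tissue staining, not to sorting for sequencing. Mean levels are log2 CPM with a prior count of 2, and floors of 3 counts cover counting error only. Exon lengths and positions came from the GRCm38 annotation and promoters from RefSeq. The steps were tested on simulated data.

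Named genes were the 3 members per complex with the smallest p at D12, the 5 with the smallest p at D28 and in D28 against D12, the isoform sets, complex II and the untested members. Others were named after their values were seen. Replicate numbers did not pair libraries: over 464 pairs of equal number the mean correlation was -0.0114, beside 0.00407 for other pairs. Alternatives were DESeq2 1.42.0, its size factors, no filter, uncorrected counts with and without collection day, a replicate block, a null log2 fold change of 1, an adjusted p under 0.1, the double-labelled library at D12, the left-out D28 library put back, each collection day and each age alone, each library left out in turn, and for levels other prior counts and the median. One result is not reported here.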

Additional observations from a re-analysis of the deposited data

Results flagged for a closer look

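Checks on the members' mean log2 CPM, over all members and by complex, sought a library apart from the others. They ran within age and state and, for the larger groups, within age, sex and state. Of 108 such checks 10 flagged a library, each within age and state with the sexes together. Chance alone flags about 1 in 20 groups, but the checks share libraries, so the rates cannot be set side by side. Each of the 10 was low. The male naive library 2 of 9 months was at 5.80 over all members, 6.02 for complex I, 6.63 for complex III and 5.77 for complex V. The female D12 library 3 of 3 months was at 6.68 over all members, 5.66 for complex IV and 6.62 for complex V. The female naive library 4 of 3 months was at 5.84 for complex I and 4.44 for complex IV, and the male naive library 1 of 18 months at 5.34 for complex IV. The male naive library 2 of 9 months and the female naive library 4 of 3 months also had the lowest short-transcript index, and whether that accounts for their low levels was not tested.

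The row Ndufs5-ps lies outside the members and moved with them. Its level was 16.2 to 83.8 CPM in naive libraries (median 57.9), 32.9 to 161 CPM at D12 (median 83.5) and 23.9 to 90.7 CPM at D28 (median 72.6). The log2 fold change at D12 was 0.70 (edgeR, SE 0.16, adjusted p = 0.0004), and 0.45 at D28 (adjusted p = 0.0504).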

How the results depend on the processing

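Counts of members passed are given here in the order D12, D28 and D28 against D12 over all ages, then D12 and D28 at each age. For the alternatives, here and above, the shares of all genes called are not given. Under the alternatives named next, the other counts stayed within 1.5 times the values in the report. The differences in mean level by complex moved by less than the SD between libraries, 0.37, in each alternative run. That bound exceeds several of the differences, so it does not show that they held. At D28 the runs gave 0.13 to 0.38 for complex I, 0.15 to 0.24 for II and 0.12 to 0.40 for III. Complex IV had 0.38 to 0.63 and V 0.15 to 0.38. At D12 they gave 0.23 to 0.46, 0.32 to 0.45, 0.26 to 0.47, 0.44 to 0.85 and 0.40 to 0.65. The cause of each shift was not tested unless the setting itself changes the libraries or genes used. DESeq2 gave 4 at D28 at 3 months, 13 at 9 months and 1 at 18 months. With no filter on low counts there were 7 at D28 at 3 months, 22 at 9 months, 2 among naive ages and 1 in the D28 change among ages. Uncorrected counts with no batch term gave 33, 6 and 3, then 3, 1 and 4 at D12 at 3, 9 and 18 months and 0 and 0 at D28 at 3 and 9 months. Against a log2 fold change of 1 the counts were 1, 0 and 0, then 0, 0 and 0 at D12 and 0 and 0 at D28 at 3 and 9 months. At an adjusted p under 0.1 they were 5, 13 and 1 at D28 at the 3 ages. The replicate block left 56, 24 and 15 over all ages and changed one count, to 2 at D28 at 9 months. With the double-labelled library at D12 there were 8 in D28 against D12, 9 at D12 and 1 at D28 at 18 months, and with the left-out library put back 1 at D28 at 18 months.

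Collection day 1 alone gave 30, 7 and 2, then 0, 4 and 4 at D12 and 0, 1 and 3 at D28 by age, with 2, 2 and 1 in the tests among ages of naive levels, D12 and D28 changes. Day 2 alone gave 10 at D12 at 3 months, and 1 and 17 at D28 at 3 and 9 months. Each age fitted alone gave 16 and 0 at D28 at 3 and 9 months and 11 at D12 at 18 months. The short-transcript index as covariate, chosen after seeing the data, gave 25 in D28 against D12, and 8 and 3 at D28 at 9 and 18 months. Leaving out the 3 libraries of lowest index, also chosen later, gave 15 at D28, 24 in D28 against D12, 18, 10 and 39 at D12 and 0 and 0 at D28 at 3 and 9 months.

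With each library left out in turn, the counts ran from 49 to 62 at D12, 15 to 44 at D28 and 9 to 19 in D28 against D12. At D12 they ran from 17 to 32 at 3 months, 2 to 47 at 9 months and 8 to 35 at 18 months, and at D28 from 0 to 4, 0 to 22 and 0 to 1. The direction at D12 turned for Cox6b2 (0.27), Sdha (-0.23) and Atp5g2 (-0.39) on collection day 1, for Atp5g2 also with the index as covariate (-0.015) and without its 3 lowest libraries (-0.011), and for Cox8b without the female D12 library 2 of 9 months (-0.028), whose values ran from -0.028 to 1.09 with each library left out. None of these had passed. Depth limits Atp5g2, Cox8b, Cox4i2 and Cox7a1, whose levels lie near 3 counts.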
